A study of Homo sapiens with 4 samples.

Results

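The genes described here are 9 targets of the transcription factor NRF2 that act in glutathione synthesis and antioxidant defence: GCLC, GCLM, TXNRD1, SRXN1, SLC7A11, PGD, NQO1, AKR1C1 and HMOX1. They were 9 of the 28729 genes in the table, and all 9 had a row. The set was drawn up because GCLC was known to be lower after SKA3 knockdown, so the genes were chosen by their FPKM in knockdown against control, and their values in that comparison are given below as a description with no test.

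Levels were measured by RNA-seq in TU-177, an established human laryngeal squamous cell carcinoma (LSCC) line, to find which transcripts differ when SKA3, a subunit of a complex that couples chromosomes to spindle microtubules, is depleted. The NC group had 2 libraries of cells that received a lentivirus with a negative control shRNA, and the SKA3-KD group had 2 libraries of cells that received a lentivirus with an shRNA against SKA3. This is what the sample labels give, while the study's methods also describe sgRNA with Cas9 for stable SKA3 knockdown and siRNA for other experiments. All 4 cultures went through puromycin selection, and no other allele or agent is given for them. The sources do not say whether the replicates came from separate transductions or how many shRNAs were used, so the p-values below measure the spread between these libraries, which may be technical, and 1 shRNA cannot be told apart from the depletion of its target.

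Sequencing depth was similar, at 9015056 to 11966130 reads behind the FPKM of a library, a level that corrects fragments for exon length and library size. SKA3 was at 9.40 and 9.64 FPKM in NC and at 3.77 and 4.12 in SKA3-KD, 2.41-fold lower on average (log2 difference -1.09, SE 0.07, adjusted p = 0.00806, limma). Of the 12645 genes with a mean of at least 1 FPKM, 6.11% were called lower and 6.16% higher (12.3% in all) at an adjusted p under 0.05. Among epithelial markers KRT8 was at 430 to 453 FPKM, SFN at 133 to 155 and KRT18 at 31.1 to 39.2, whereas KRT5, KRT6A and KRT14 did not pass 0.103 FPKM, TP63 was at most 0.58 and CDH1 at most 0.447 in any library. KRT17, a keratin of basal and squamous cells, was at 45.6 and 49.1 FPKM in NC and at 29.4 and 35.7 in SKA3-KD. EPCAM was at 2.73 to 2.95 FPKM, and 5 of the 10 epithelial markers with a row were at 1 FPKM or more in every library. The cells thus carried simple epithelial keratins, KRT17 and SFN, while the other basal squamous markers named were near 0. Of 6 fibroblast markers, 3 were at 1 FPKM or more in every library, and the sum of all 6 was 15.4 to 15.8 in NC and 8.86 to 9.56 in SKA3-KD, mostly through DCN (8.40 and 8.36 against 2.48 and 2.35), while PDGFRB went the other way (2.88 and 2.46 against 3.19 and 4.13), with COL1A2 at 0 to 0.00749 and LUM at 0 to 0.221. The part of this difference in the values below was not tested. Leukocyte markers summed to 0.798 to 1.38 FPKM and endothelial markers to 0.0633 to 0.0968 over the 4 libraries.

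NRF2, encoded by NFE2L2, is held at low levels by KEAP1, which hands it to a CUL3 ubiquitin ligase for degradation. When electrophiles or peroxides modify cysteines of KEAP1, NRF2 accumulates, pairs with a small MAF protein and binds antioxidant response elements near genes for glutathione synthesis, thioredoxin, NADPH supply and detoxification, while BACH1 competes for such elements and represses some of them, HMOX1 above all. Mutations that free NRF2 from KEAP1 are frequent in squamous carcinomas, and NRF2 activity there is known for raising resistance to oxidants and drugs.

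Promoter windows were taken from RefSeq (GRCh38.p14) for 7 of the 9 genes, all but HMOX1 and SLC7A11, each running from 250 bases before an annotated start to 50 after it. They were searched on both strands for the core of the antioxidant response element, TGACNNNGC, and for the AP-1 like element TGANTCA. TGACNNNGC was present in the windows of 3 of the 7 genes, GCLM, TXNRD1 and PGD, and in 13.3% of all 35116 windows. TGANTCA was present in none of the 7 and in 7.71% of all windows. Counts of genes and shares of windows are not like for like, since TXNRD1 had more than 1 window. The 250 bases before the start are printed below, 5′ to 3′ on the strand of the gene, for the 3 genes with a match and for GCLC, the gene the set was built around, whose window held no match. Capitals mark the element, which lies on the opposite strand in these windows and so reads as its reverse complement. The windows are chr6:53545102-53545351 on the minus strand for GCLC, chr1:93909431-93909680 on the minus strand for GCLM, chr12:104286782-104287031 on the plus strand for TXNRD1 and chr1:10398814-10399063 on the plus strand for PGD.
GCLC: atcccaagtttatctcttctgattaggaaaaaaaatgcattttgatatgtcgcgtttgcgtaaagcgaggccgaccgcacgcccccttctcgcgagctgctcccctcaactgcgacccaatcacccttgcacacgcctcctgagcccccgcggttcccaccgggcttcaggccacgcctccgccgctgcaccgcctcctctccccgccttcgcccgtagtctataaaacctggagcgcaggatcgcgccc
GCLM: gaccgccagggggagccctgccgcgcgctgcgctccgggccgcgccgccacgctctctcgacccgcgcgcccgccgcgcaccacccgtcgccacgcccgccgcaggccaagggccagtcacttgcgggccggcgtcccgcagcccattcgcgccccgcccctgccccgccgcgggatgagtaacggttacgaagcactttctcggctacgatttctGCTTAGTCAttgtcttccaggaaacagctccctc
TXNRD1: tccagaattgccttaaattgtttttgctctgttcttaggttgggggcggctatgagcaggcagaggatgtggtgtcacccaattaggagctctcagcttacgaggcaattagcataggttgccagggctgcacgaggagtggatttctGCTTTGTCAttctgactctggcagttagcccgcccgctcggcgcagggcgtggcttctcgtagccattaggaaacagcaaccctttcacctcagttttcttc
PGD: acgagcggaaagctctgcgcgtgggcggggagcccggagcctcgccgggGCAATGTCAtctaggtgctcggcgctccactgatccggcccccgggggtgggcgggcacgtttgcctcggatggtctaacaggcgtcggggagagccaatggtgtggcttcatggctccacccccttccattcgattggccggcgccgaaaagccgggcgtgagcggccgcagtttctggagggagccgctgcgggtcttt
The element began 34 bases before the start in GCLM, 102 before it in TXNRD1 and 201 before it in PGD. A further TXNRD1 window, at another annotated start, held 2 matches, at 99 and 8 bases before that start. These letters describe the windows and not the binding of a factor, and elements outside them were not searched.

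Glutathione is built by glutamate-cysteine ligase, a dimer of the catalytic subunit GCLC and the modifier subunit GCLM, and this ligase sets the pace of the synthesis. GCLC (ENSG00000001084, chr6:53497341-53616970, minus strand, positions of genes being those of GENCODE 29 on GRCh38) was at 9.95 and 9.0 FPKM in NC and at 5.78 and 6.21 in SKA3-KD, from 1008, 687, 498 and 620 reads. Both SKA3-KD libraries were below both NC libraries, with means of 6.0 ± 0.304 against 9.48 ± 0.671 (SD, n = 2 each), which is 1.58-fold lower. The log2 difference on log2(FPKM + 1) was -0.58 (SE 0.08), and the 2 SKA3-KD libraries lay at -0.63 and -0.54 from the NC mean.

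GCLM (ENSG00000023909, chr1:93885205-93909456, minus strand) was at 13.2 and 12.1 FPKM in NC and at 11.3 and 9.78 in SKA3-KD. The groups did not overlap either, but the difference was smaller than that of GCLC, with means of 12.7 ± 0.779 and 10.6 ± 1.10 (n = 2 each) and a log2 difference of -0.24 (SE 0.09). Without SKA3-KD 2 the log2 difference was -0.15. The exact 95% Poisson intervals of the nearest libraries, 11.2 to 13.1 FPKM in NC 2 and 10.5 to 12.3 in SKA3-KD 1, overlapped, and such intervals cover counting error only. The level of GCLC per unit of GCLM was 0.753 and 0.743 in NC and 0.510 and 0.635 in SKA3-KD.

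SLC7A11 (ENSG00000151012, chr4:138164097-138242349, minus strand) encodes the light chain of the cystine/glutamate exchanger xCT, which brings in the cystine from which the cysteine of glutathione is made. It went the other way, at 7.70 and 8.13 FPKM in NC and at 12.3 and 11.3 in SKA3-KD, from 889, 707, 1207 and 1290 reads. Both SKA3-KD libraries were above both NC libraries, with means of 11.8 ± 0.675 against 7.92 ± 0.303 (n = 2 each), a ratio of 1.49 and a log2 difference of 0.52 (SE 0.07). Among the 9 genes it was the only one whose SKA3-KD libraries both lay above both NC libraries.

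HMOX1 (ENSG00000100292, chr22:35380361-35394214, plus strand), the inducible haem oxygenase that splits haem into biliverdin, carbon monoxide and iron, had the largest difference of the 9 genes on log2(FPKM + 1). It was at 6.74 and 8.81 FPKM in NC and at 1.88 and 3.17 in SKA3-KD, from 194, 191, 46 and 90 reads. The means were 7.78 ± 1.46 and 2.53 ± 0.915 (n = 2 each), which is 3.08-fold lower, with a log2 difference of -1.33 (SE 0.21). The groups were apart while the libraries within each also differed, and the SKA3-KD libraries lay at -1.60 and -1.06 from the NC mean. Counting intervals were 1.38 to 2.51 FPKM in SKA3-KD 1 and 2.55 to 3.90 in SKA3-KD 2. In NC the levels of SLC7A11 and HMOX1 were close, with SLC7A11 at 1.14 and 0.923 times HMOX1, and in SKA3-KD it was at 6.54 and 3.57 times HMOX1, a ratio chosen after its values were seen.

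**Figure D1:**
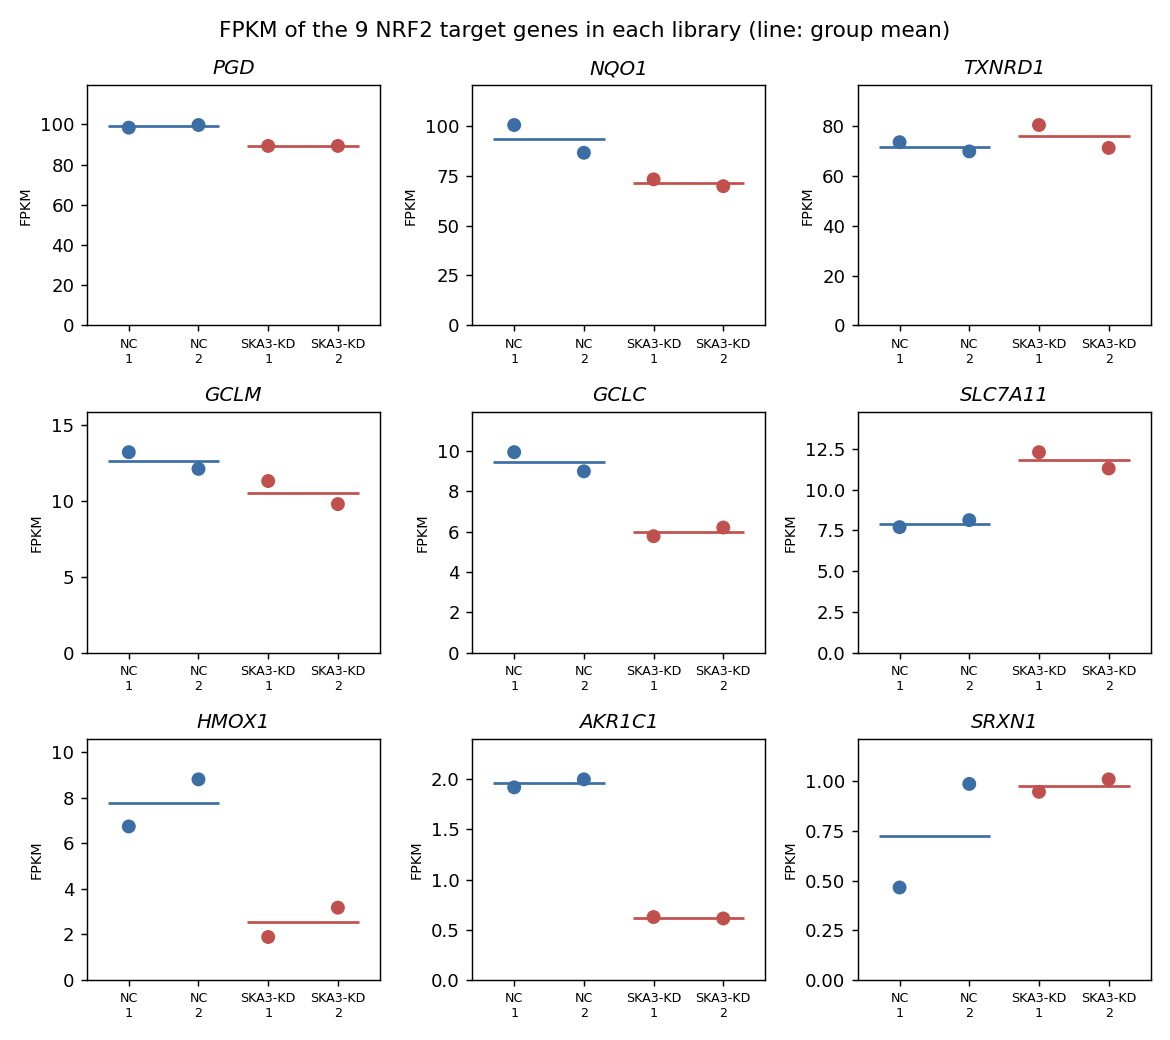
FPKM (vertical axes, from 0 and with a scale of their own) of each of the 9 genes in the 4 libraries, NC in blue and SKA3-KD in red, with a line at the mean of each group of 2. GCLC, HMOX1 and AKR1C1 lie clearly lower in both SKA3-KD libraries, SLC7A11 lies higher in both, and the groups overlap for TXNRD1 and SRXN1.

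AKR1C1 (ENSG00000187134, chr10:4963253-4983283, plus strand), an aldo-keto reductase of steroids and lipid aldehydes, was at 1.92 and 2.0 FPKM in NC and at 0.626 and 0.612 in SKA3-KD, from 217, 170, 60 and 68 reads. The means, 1.96 ± 0.0542 and 0.619 ± 0.0097 (n = 2 each), were 3.17-fold apart, and the libraries within each group were nearly equal. The log2 difference was -0.87 (SE 0.14) with 1 FPKM added and -1.52 with 0.1 FPKM added, since the added value understates the change of a gene at this level. The gene passed the minimum mean of 1 FPKM only through the NC libraries. NQO1 (ENSG00000181019, chr16:69706996-69726951, minus strand), the quinone reductase often read as a gauge of NRF2 activity, was at 100.3 and 86.4 FPKM in NC and at 73.1 and 69.7 in SKA3-KD. The SKA3-KD libraries were both lower, with means of 71.4 ± 2.42 against 93.4 ± 9.82 and a log2 difference of -0.38 (SE 0.09), while the NC libraries differed from each other by 0.21 on the same scale.

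PGD (ENSG00000142657, chr1:10398592-10420144, plus strand) encodes 6-phosphogluconate dehydrogenase, which makes NADPH in the pentose phosphate pathway. It was at 98.4 and 99.7 FPKM in NC and at 89.3 in each SKA3-KD library, a small and even difference (ratio 0.902, log2 difference -0.15, SE 0.05). TXNRD1 (ENSG00000198431, chr12:104215779-104350305, plus strand), the cytosolic thioredoxin reductase, was at 73.6 and 69.9 FPKM in NC and at 80.5 and 71.3 in SKA3-KD. Its groups overlapped, the log2 difference was 0.08 (SE 0.08), and without SKA3-KD 1 it was -0.01. SRXN1 (ENSG00000271303, chr20:646615-653370, minus strand), the sulfiredoxin that restores overoxidised peroxiredoxins, was at 0.465 and 0.987 FPKM in NC against 0.947 and 1.01 in SKA3-KD, from only 15, 24, 26 and 32 reads. Counting intervals of 0.260 to 0.766 FPKM in NC 1 and 0.688 to 1.42 in SKA3-KD 2 overlapped, which does not decide whether these libraries differ. The groups overlapped too, with NC 2 between the SKA3-KD libraries, and a difference was not tested.

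Of the 9 genes, 8 reached the mean of 1 FPKM and SRXN1 did not. Among those 8, both SKA3-KD libraries were below both NC libraries for 6 and above them for 1, where 29.2% of all genes tested were below and 32.3% above (61.6% without overlap in either direction). Nothing is read from these counts, since the comparison chose the set and AKR1C1 passed the minimum only through NC. The median log2 difference over the 8 was -0.31, against 0.01 over all genes tested.

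The levels of the 9 genes were far apart. In NC the order by mean FPKM was PGD, NQO1, TXNRD1, GCLM, GCLC, SLC7A11, HMOX1, AKR1C1 and SRXN1, and the library ranges of the neighbours PGD and NQO1 and of SLC7A11 and HMOX1 overlapped. In SKA3-KD it was PGD, TXNRD1, NQO1, SLC7A11, GCLM, GCLC, HMOX1, SRXN1 and AKR1C1, with overlap for TXNRD1 and NQO1. By mean FPKM, SLC7A11 thus stood below both ligase subunits in NC and above both in SKA3-KD, and AKR1C1 went to the last place. The step over GCLM was narrow, with SLC7A11 in SKA3-KD 2 and GCLM in SKA3-KD 1 both at 11.3 FPKM. Their counting intervals, 10.7 to 12.0 and 10.5 to 12.3, overlapped. Those of SLC7A11 and GCLC in NC 2, 7.54 to 8.75 and 8.34 to 9.7, overlapped too.

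**Figure D2:**
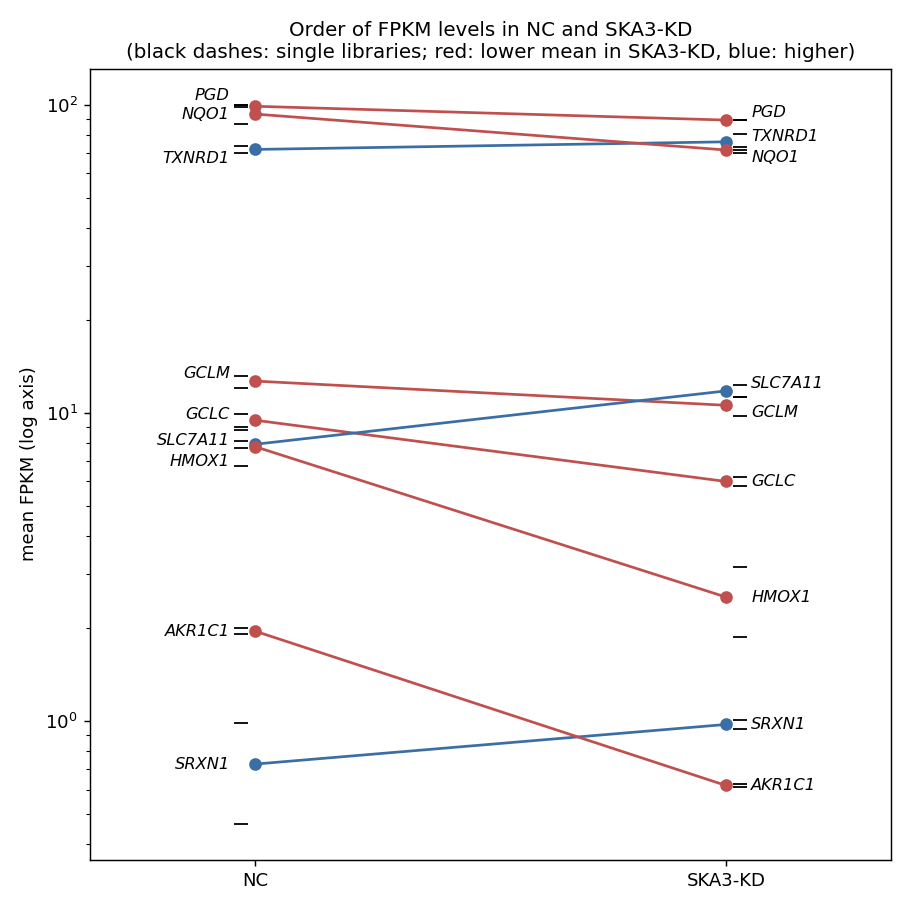
Mean FPKM (vertical log axis) of the 9 genes in NC and SKA3-KD, joined by a line for each gene, red where the SKA3-KD mean is lower and blue where it is higher, with black dashes for single libraries. The line of SLC7A11 crosses those of GCLM and GCLC, and the lines of HMOX1 and AKR1C1 are the steepest downward.

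To set these values beside the rest of the pathway, 126 other genes of the NRF2 and glutathione system were listed by role, of which 118 had a row and 103 reached a mean of 1 FPKM. Of the 103, 14 fell (13.6%) and 4 rose (3.88%), against 6.11% and 6.16% of all genes tested, and their median log2 difference was -0.09. The 2 SKA3-KD libraries were below both NC libraries for 45 (43.7%, against 29.2% of all genes tested) and above them for 26 (25.2%, against 32.3%). The 45 include AKR1C4 and SLC1A1, which reached a mean of 1 FPKM only through NC (SLC1A1 means of 1.52 in NC and 0.902 in SKA3-KD). The list was drawn up with earlier results of these data known, and AKR1C2, one of the 14, can share reads with AKR1C1. Nothing is read from these shares. The genes that fell were spread over 9 of the 11 roles, with at most 3 in any one.

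Among the 13 regulators tested, BACH1 alone passed the test (7.69% higher, against 6.16% of all genes tested). It rose from 9.98 and 9.49 FPKM in NC to 14.5 and 16.9 in SKA3-KD (log2 difference 0.64, SE 0.09, adjusted p = 0.0214). NFE2L2, the gene of NRF2 itself, was at 19.6 and 18.9 FPKM in NC and at 16.6 and 15.9 in SKA3-KD, without overlap but short of the threshold (-0.23, SE 0.06, adjusted p = 0.0766). KEAP1 was at 8.53 and 11.4 against 8.86 and 9.58 FPKM, and its groups overlapped (-0.09, adjusted p = 0.704). Of 2 KEAP1 windows 1 held 2 TGACNNNGC matches, 54 and 31 bases before its start, and of 3 BACH1 windows 1 held a TGANTCA match 48 bases before its start, while the others held no match. Transcript levels do not measure the NRF2, KEAP1 or BACH1 proteins. NFE2L1, a related factor and the most abundant of the regulators, was at 33.3 and 34.1 FPKM on average (0.03, adjusted p = 0.747).

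Of 15 further genes of glutathione synthesis and turnover, 1 fell and 1 rose (6.67% each, against 6.11% and 6.16% of all genes tested). CTH, cystathionine gamma-lyase, which makes cysteine from cystathionine, fell from 14 and 12.8 to 7.86 and 7.69 FPKM (log2 difference -0.71, SE 0.07, adjusted p = 0.0123). GSR, the reductase that returns oxidised glutathione to its reduced form, rose from 49.2 and 45.3 to 60.9 and 59.4 FPKM (0.34, SE 0.06, adjusted p = 0.0362). GLO1, glyoxalase 1 and the most abundant of the 15, was at 83.6 ± 8.58 against 87.7 ± 5.59 FPKM (0.07, adjusted p = 0.654).

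Of 3 genes listed as glutathione peroxidases 1 fell (33.3%, against 6.11% of all genes tested). This was GPX8, a peroxidase of the endoplasmic reticulum, from 14.8 ± 0.616 to 11.2 ± 0.132 FPKM (log2 difference -0.37, SE 0.07, adjusted p = 0.0313). GPX1, the abundant cytosolic peroxidase, was at 148 ± 12.6 and 164 ± 12.9 FPKM (0.14, adjusted p = 0.336). Of 12 glutathione S-transferases 1 fell (8.33%, against 6.11% of all genes tested). This was the microsomal MGST3, from 14.5 ± 0.0960 to 9.65 ± 1.07 FPKM (-0.55, SE 0.09, adjusted p = 0.0267). GSTP1, by far the most abundant of them, was at 501 and 521 FPKM in NC and at 444 and 449 in SKA3-KD, which did not overlap and did not pass the test (-0.19, adjusted p = 0.0736). Within the thioredoxin and peroxiredoxin system 2 of 10 genes fell, against 6.11% of all genes tested. PRDX5, a peroxiredoxin of mitochondria, peroxisomes and cytosol, fell from 366 ± 3.28 to 271 ± 0.845 FPKM (-0.43, adjusted p = 0.0149). PRDX4, that of the secretory pathway, fell from 69.5 ± 1.09 to 56.4 ± 1.53 FPKM (-0.30, adjusted p = 0.0352). PRDX1, the main cytosolic one, was at 601 ± 32.1 and 622 ± 23.5 FPKM (0.05, adjusted p = 0.648).

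Of 9 further transporters 1 fell and 1 rose (11.1% each, against 6.11% and 6.16% of all genes tested). ABCC2 (MRP2), which exports glutathione conjugates, fell from 18.3 ± 0.777 to 11.8 ± 0.384 FPKM (log2 difference -0.59, SE 0.07, adjusted p = 0.0149), while its relative ABCC3 (MRP3) rose from 6.67 ± 0.437 to 8.86 ± 0.0641 (0.36, SE 0.07, adjusted p = 0.0417). SLC3A2, the heavy chain that pairs with SLC7A11 in xCT and with other light chains, did not follow SLC7A11, at 106 and 114 FPKM in NC and 97.3 and 101 in SKA3-KD (-0.14, adjusted p = 0.186). Of 10 further genes of NADPH supply 2 fell, against 6.11% of all genes tested. IDH1, the cytosolic NADP-dependent isocitrate dehydrogenase, fell from 25.6 and 24.7 to 13.4 and 13.3 FPKM (-0.87, SE 0.06, adjusted p = 0.00806), and NNT, the mitochondrial transhydrogenase, from 32.8 ± 1.40 to 26.5 ± 0.773 (-0.30, adjusted p = 0.0459). TKT, transketolase of the same pentose phosphate pathway as PGD, was at 86.0 ± 5.39 and 88.4 ± 0.0716 FPKM (0.04, adjusted p = 0.711).

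Of 14 further aldo-keto reductases and quinone and aldehyde enzymes, 3 fell (21.4%, against 6.11% of all genes tested) and none rose. A log2 difference below 0 was seen in 13 of the 14 (48.44% of all genes tested), and in 11 both SKA3-KD libraries were below both NC libraries (78.6%, against 29.2%). AKR1C4 is among the 11 and passed the minimum mean of 1 FPKM only through NC, and AKR1C2 can share reads with AKR1C1. Nothing is read from these shares. AKR1C2, a near copy of AKR1C1, fell from 24.9 and 23.8 to 11 and 10.9 FPKM (-1.08, SE 0.06, adjusted p = 0.0065). AKR1C3, a prostaglandin and androgen reductase, fell from 47.8 and 46.3 to 28.7 and 28.0 FPKM (-0.71, SE 0.06, adjusted p = 0.00888), and AKR1B1, aldose reductase, from 71.9 ± 2.09 to 55.7 ± 1.80 (-0.36, SE 0.06, adjusted p = 0.0265). The AKR1C genes lie beside each other on chromosome 10. In GENCODE 29, 26.6% of the 50-base stretches of AKR1C1 transcripts also occur in AKR1C2 transcripts, and 43.2% of those of AKR1C2 in AKR1C1, so the way reads were assigned could move reads between them and their separate levels are uncertain. AKR1C3 holds 1.91% of the AKR1C1 stretches. The summed level of AKR1C1 to AKR1C4, which such moves change less, was 76.3 and 73.9 FPKM in NC and 40.9 and 40.4 in SKA3-KD, a ratio of 0.542.

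The likeness of the pair extends upstream. The 250 bases before the starts of AKR1C1 (chr10:4963165-4963414, plus strand) and AKR1C2 (chr10:5003858-5004107, minus strand) in RefSeq GRCh38.p14 can be aligned over 246 bases, of which 245 (99.6%) are identical, and the capital marks the aligned base that differs. That base is the last of the AKR1C1 stretch. Skipping GAAA in the longer AKR1C1 window lines up CATTTGC in both, so the mark need not be a changed base. The 2 stretches are shown because these neighbours, read from opposite strands, were both lower in SKA3-KD.
AKR1C1: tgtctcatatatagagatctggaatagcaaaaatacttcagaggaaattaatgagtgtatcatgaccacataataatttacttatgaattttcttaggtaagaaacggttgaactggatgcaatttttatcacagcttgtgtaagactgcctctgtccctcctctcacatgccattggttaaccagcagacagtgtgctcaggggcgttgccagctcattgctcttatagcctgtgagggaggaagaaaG
AKR1C2: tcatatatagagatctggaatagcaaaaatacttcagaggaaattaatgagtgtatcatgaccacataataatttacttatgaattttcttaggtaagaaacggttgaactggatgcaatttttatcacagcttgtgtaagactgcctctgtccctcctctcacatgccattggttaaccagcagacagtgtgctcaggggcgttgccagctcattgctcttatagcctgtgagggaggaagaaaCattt
Neither stretch held TGACNNNGC or TGANTCA.

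**Figure D3:**
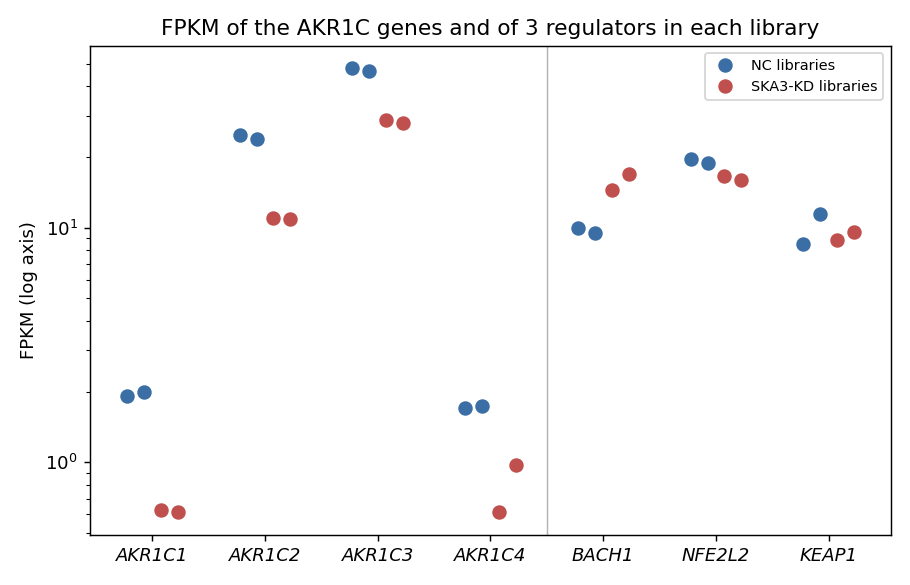
FPKM (vertical log axis) of the 4 AKR1C genes and of BACH1, NFE2L2 and KEAP1 in the 2 NC libraries (blue) and the 2 SKA3-KD libraries (red), 1 point a library. All 4 AKR1C genes lie lower in both SKA3-KD libraries, BACH1 lies higher in both, and the KEAP1 points overlap.

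Among 7 further genes of haem and iron handling, 1 fell and 1 rose (14.3% each, against 6.11% and 6.16% of all genes tested). BLVRB, a biliverdin and flavin reductase, fell from 63.1 ± 2.84 to 44.8 ± 0.0543 FPKM (log2 difference -0.48, SE 0.06, adjusted p = 0.0165). SLC48A1 (HRG1), which releases haem from endosomes and lysosomes, rose from 5.32 ± 0.0989 to 8.24 ± 0.438 (0.55, SE 0.07, adjusted p = 0.0196). FTL, the ferritin light chain, was at 707 ± 4.15 and 597 ± 29.8 FPKM (-0.25, adjusted p = 0.0569), and its reads can be shared with processed pseudogenes. Of 3 enzymes that remove superoxide and hydrogen peroxide 2 fell (66.7%, against 6.11% of all genes tested). These were SOD1, from 150.5 and 150.4 to 99.4 and 98.0 FPKM (-0.60, SE 0.05, adjusted p = 0.00932), and CAT, from 15.8 and 14.5 to 10.8 and 8.82 (-0.59, SE 0.11, adjusted p = 0.0357). The other one, the mitochondrial SOD2, named after its values were seen, was at 7.54 and 7.64 against 8.06 and 7.72 FPKM (0.05, adjusted p = 0.659). None of the 7 other targets passed the test (limma), and SLC6A6, the taurine transporter and the most abundant of them, was at 34.5 ± 1.77 and 30.0 ± 1.96 FPKM (-0.20, adjusted p = 0.154).

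**Figure D4:**
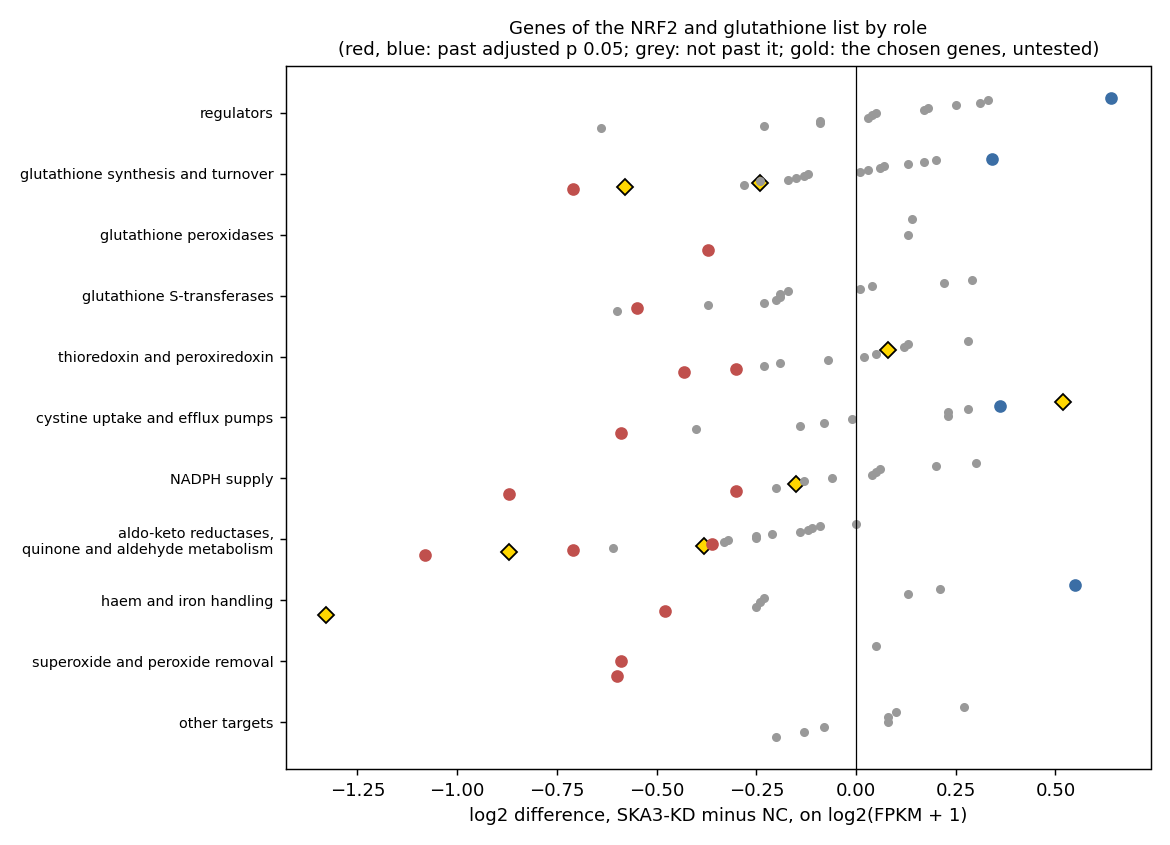
Log2 difference on log2(FPKM + 1), SKA3-KD minus NC (horizontal axis), of each tested gene of the list by role. Red and blue points are genes past an adjusted p of 0.05 (14 lower, 4 higher), grey points are those not past it, and gold diamonds are 8 of the 9 chosen genes, given without a test.

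All calls rest on 2 libraries a group. An exact permutation test of a single gene cannot go below p = 0.333 here, so the calls draw on the spread shared over genes in limma. Without NC 1 or without NC 2 no gene of the table passed the threshold (smallest adjusted p 0.066 and 0.06). The log2 differences of the 18 genes called kept their direction with any 1 library left out. Their groups did not overlap, so this was fixed in advance and nothing is read from it. Libraries of cells in bulk cannot tell fewer cells with a transcript from less of it per cell.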

How the data were processed

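RNA-seq of 2 NC and 2 SKA3-KD cultures of TU-177 was used. The authors deposited FPKM per gene and library. The submitters' processing notes name HISAT2, Bowtie2 2.2.8, StringTie 1.3.1, Cuffdiff 2.1.1 and hg19. The annotation and strand use are not given in the sources used here, so antisense partners cannot be told apart. Whole reads were recovered from the FPKM steps for 96.73% of the genes tested (tolerance 0.01), 61.34% with the GENCODE 29 exon length and the rest with another length. The recovered reads summed to 101.48% to 103.07% of library size.

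SKA3-KD was compared with NC by limma 3.58.1 in R 4.3.3 (lmFit, eBayes with trend) on log2(FPKM + 1) over 12645 genes with mean FPKM of at least 1, adjusted by Benjamini-Hochberg at 0.05. Symbols came from GENCODE 29 and a name table (27199 genes). The steps were tested on simulated data. The 9 genes, the lists and the tests were chosen with earlier results of these data known. Named are the 9 genes, SKA3, NFE2L2, KEAP1, BACH1, each list gene past the threshold and the most abundant gene of each role. GPX7, GSTA1, GSTA2, TXNIP, AKR1B15, SLC40A1, FTMT and SOD3 are not analysed here. Alternatives were another pseudocount, filter, scaling, variance model, a replicate block, voom on recovered reads and each library left out. Replicates of a group differed beyond sampling noise (chi-square per gene 3.822 and 3.757). Python 3.11.15 did the rest.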

Additional observations from a re-analysis of the deposited data

How the results depend on the processing

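Among the 103 list genes, 14 fell and 4 rose. The counts were the same with a pseudocount of 0.1, median-of-ratios scaling and quantile normalization, and 15 and 4 with robust eBayes. Voom on the recovered reads gave 28 and 12 (1541 and 1743 over all genes), no trend 8 and 2 (381 and 312), no filter 4 and 0 (81 and 48, with 28 and 13 list genes at an unadjusted p under 0.05 by limma), and a mean of at least 5 FPKM 21 and 10 of 85 (887 and 993 of 7303). With the replicate block 22 list genes fell and 6 rose (965 and 1002 over all genes), but the numbers share no stated source, and the correlation of same-numbered deviations was 0.09733 over 2 pairs. AKR1C2, AKR1C3, IDH1, SOD1 and SKA3 passed under all 9 alternatives with 4 libraries. NFE2L2 passed in 1 of the 9, with adjusted p from 0.0205 to 0.126.

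With 1 library left out, 0 to 2 list genes fell and 0 rose, and over all genes 0 to 135 fell and 0 to 46 rose, the lone library being assumed to vary like the others. Without NC 1, 26 and 10 list genes were at an unadjusted p under 0.05 by limma, and without NC 2, 22 and 15. SKA3 ranged from -1.14 to -1.04 and missed the threshold without NC 1 (-1.11) and without NC 2 (-1.07). Differences near 0 changed sign in such fits: GLO1 -0.03 to 0.17, KEAP1 -0.27 to 0.10, NFE2L1 -0.00 to 0.07, PRDX1 -0.01 to 0.10 and TKT -0.02 to 0.10. The cause was not tested. Of the 9 genes, GCLC ranged from -0.66 to -0.52, GCLM from -0.34 to -0.15, NQO1 from -0.49 to -0.27, TXNRD1 from -0.01 to 0.17, PGD from -0.16 to -0.14, AKR1C1 from -1.66 to -0.84, SLC7A11 from 0.47 to 0.58 and HMOX1 from -1.62 to -1.06 over all settings. Depth limits SRXN1.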

Other observations

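The 118 listed genes other than the 9 chosen summed to 5534 and 5557 FPKM in NC and to 5095 and 4984 in SKA3-KD, a ratio of 0.909. Such a sum weighs abundant genes most, such as FTL (means of 707 and 597) and PRDX5 (366 and 271). It does not describe the list gene by gene. Of the 103 tested, 57 had a log2 difference below 0 and 46 above 0. FTH1 and FTL, the ferritin chains, summed to 952 and 1031 against 838 and 835 FPKM, and NQO1 and NQO2 to 121 and 106 against 90.8 and 86.4. AKR1C4 was at 1.7 and 1.74 FPKM in NC and at 0.616 and 0.975 in SKA3-KD, and like AKR1C1 it reached the minimum mean of 1 FPKM only through NC. MAFK, a small MAF partner of NRF2 and of BACH1, was at 18.2 and 21.2 against 10.1 and 14.8 FPKM. AKR1C4, MAFK, MAFF and MAFG were chosen after their values were seen.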
